A study of Mus musculus with 102 samples.

Results

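At the promoters of mouse embryonic stem (ES) cells, H3K4me1 peaks that touch an H3K4me3 peak were examined in cells with catalytically inactive MLL3 and MLL4 and in wild-type cells. A member is a peak of the deposited H3K4me1 table that the authors grouped as proximal and that overlaps a peak of the deposited H3K4me3 table by at least 1 bp. There were 20560 members, which were 25.1% of the 82053 H3K4me1 peaks and 83.3% of the 24672 proximal ones. The remaining 4112 proximal peaks without an H3K4me3 peak, and the 17212 distal H3K4me1 peaks that overlap an H3K4me3 peak, served as comparison. Of the members, 96.1% overlapped an H3K4me3 peak that was itself grouped as proximal, so the 2 groupings name the same places in most cases.

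Methylation of lysine 4 of histone H3 marks active and poised regulatory DNA. The trimethylated form, H3K4me3, sits over the start sites of active and CpG-rich promoters, where it is laid down mainly by the SET1 and MLL1/2 methyltransferases. The monomethylated form, H3K4me1, is typical of enhancers, where MLL3 and MLL4 are the main methyltransferases, and it also forms shoulders on either side of an H3K4me3 promoter.

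Chromatin immunoprecipitation with sequencing was done for H3K4me1, H3K4me2 and H3K4me3 in 2 lines of R1 ES cells (strain 129SV), one labelled MLL3/4 double catalytic dead and the other wild-type. Both lines were grown on mouse feeder cells in serum-free medium with knockout serum replacement and LIF, a cytokine that keeps ES cells undifferentiated. The labels give 2 libraries for each mark and line, but the tables give 1 fold enrichment per peak and line, so neither depth nor spread between libraries can be read from them, and the lines were compared without a test. The labels do not say whether the catalytic-dead line is 1 clone. A further set of tables lists regions, H3K27ac and 17 chromatin proteins in ES cells of strain 129/Ola, a different line, with feeder-free passages before harvest. Libraries of MLL3/4 double-knockout cells and of their floxed parental cells (129/C57) were not used here. Positions are in build mm9. No gene names or sequences are given because no annotation or genome of that build was used here.

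Before any comparison the values of the 3 peak tables were moved to the positions they belong to, because their blocks run through the chromosomes in number order and the positions in text order. Among members of chromosomes 2 to 19, Spearman's rho between H3K4me1 and H3K4me3 fold enrichment in catalytic-dead cells was 0.314 in the restored order and -0.00698 as deposited. On chromosomes 1 and X, where both orders coincide, it was 0.258. If this restoration is correct, most members carry the values of other peaks in the layout as deposited. Directions given below are those of the restored order.

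H3K4me1 at these promoters was higher in cells without MLL3/4 catalytic activity. The median fold enrichment of the 20560 members was 4.65 in catalytic-dead cells (quartiles 3.93 to 5.41) and 2.56 in wild-type cells (2.16 to 2.99). The median log2 ratio, catalytic-dead over wild-type, was 0.93 (0.92 to 0.94, a 95% interval of the median that treats peaks as independent and covers no error between libraries). Of the members, 92.5% were above 0. It was -0.07 with the values as deposited. The table as a whole lay at -0.21, and relative to that shift the median of the members was 1.14. By a rule of size, a ratio of 2 or above is called increased and one of 0.5 or below decreased. By this rule 9007 members (43.8%) were increased, where the background over the whole H3K4me1 table was 15.2%, and 123 members (0.598%) were decreased, where the background was 28.4%. The share increased was 16.4% with a pseudocount of 1, 17.9% with the values as deposited and 7.24% after quantile normalization, which also lowered the median log2 ratio to 0.50.

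Proximal peaks that did not touch an H3K4me3 peak lay on the other side of 0. Their median fold enrichment was 1.92 in catalytic-dead and 2.97 in wild-type cells, a median log2 ratio of -0.70, with 4.64% increased and 37.7% decreased. The members' median lay 1.63 above theirs, and 0.68 above after quantile normalization and 0.14 with the values as deposited. Distal peaks at H3K4me3 lay between, with 3.61 in catalytic-dead and 3.02 in wild-type cells and a median log2 ratio of 0.30, with 13.9% increased and 5.25% decreased. The members therefore had the highest catalytic-dead and the lowest wild-type median of these 3 sets. How peaks were called, and from which line, is not given in the sources used here, so the part that peak calling has in these levels was not tested.

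Members were divided by how they lie on the H3K4me3 peak they overlap most. Inside peaks (861 members, 4.19%) lie wholly within it. The other 19699, called edge peaks, reach past it: 5761 covering peaks contain the whole H3K4me3 peak, 11735 extending peaks cross an edge with at least 50% of their width within H3K4me3, and 2203 flanking peaks cross an edge with less than 50% of their width within. Extending peaks, 57.1% of the members, are the usual form. Inside peaks were the narrowest, with a median width of 1290 bp, and sat in the widest H3K4me3 peaks, of 4154 bp. Covering peaks were the widest, with 2727 bp, on the narrowest H3K4me3 peaks, of 1726 bp.

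All 4 classes were higher in catalytic-dead cells, by different amounts. Inside peaks had a median fold enrichment of 4.37 in catalytic-dead and 2.25 in wild-type cells, with a log2 ratio of 1.03 (1.0 to 1.06). Extending peaks had 4.82 in catalytic-dead and 2.45 in wild-type cells, with 1.02 (1.01 to 1.03). For both classes more than 50% of peaks were called increased, 53.5% of inside and 52.0% of extending peaks. Flanking peaks had 4.33 in catalytic-dead and 2.56 in wild-type cells, with a log2 ratio of 0.86 (0.83 to 0.89) and 39.7% increased. Covering peaks were lowest, with 4.45 in catalytic-dead and 2.85 in wild-type cells, a log2 ratio of 0.71 (0.69 to 0.73) and 27.1% increased. The extending median was above the covering and above the flanking median on 19 of 19 autosomes. With the values as deposited, the covering, extending and flanking medians were -0.15, -0.04 and -0.08, and the inside median was 0.06.

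**Figure D1:**
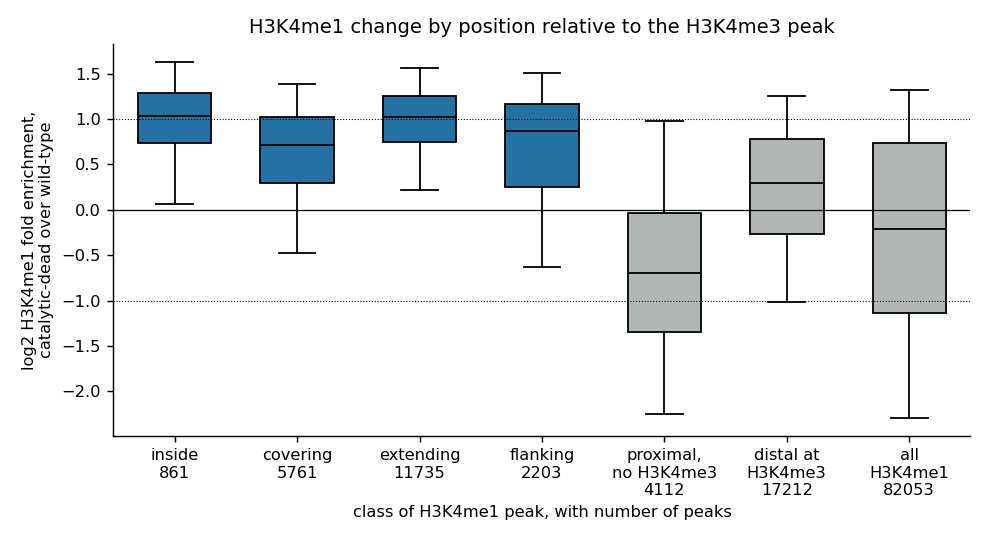
Log2 ratio of H3K4me1 fold enrichment, catalytic-dead over wild-type, for the 4 classes of members (blue) and for comparison sets (grey). Boxes give the median and quartiles over peaks, whiskers the 5th and 95th percentiles, dotted lines the limits of a call; inside and extending peaks lie highest, at medians of 1.03 and 1.02, and proximal peaks without H3K4me3 lowest, at -0.70.

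Inside peaks had lower levels than edge peaks in both lines and a slightly larger change. Edge peaks together had a median fold enrichment of 4.66 in catalytic-dead and 2.57 in wild-type cells and a log2 ratio of 0.93. The inside median was 0.11 above it on the log2 scale, far less than the quartile range of either set (0.74 to 1.28 for inside and 0.58 to 1.20 for edge peaks). The difference was above 0 on 16 of 19 autosomes, and ranged over them between -0.18 and 0.24. In wild-type cells inside peaks lay below edge peaks on 19 of 19 autosomes, and in catalytic-dead cells on 15 of 19. On chromosomes 1 and X alone, where both orders coincide, the difference was 0.057, and its interval spans 0 (-0.038 to 0.152). Against extending peaks alone, the inside median was higher on only 11 of 19 autosomes. Over all members, the gap between inside and edge medians was thus one towards covering and flanking peaks, since inside and extending medians were 1.03 and 1.02. Within single H3K4me3 peaks a gap remained without covering peaks, as given below.

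Peak width and H3K4me3 level differ between the classes, so inside and edge peaks were also set side by side within 3 equal groups of each. In the narrowest group by width the log2 ratio was 1.06 at inside and 0.97 at edge peaks, in the middle group 1.04 at inside and 1.0 at edge peaks, and in the widest group 0.98 at inside and 0.81 at edge peaks. By wild-type H3K4me3 fold enrichment it was 0.82 at inside and 0.67 at edge peaks in the lowest group, 1.06 at inside and 0.98 at edge peaks in the middle group, and 1.15 at inside and 1.05 at edge peaks in the highest group. Inside peaks were higher than edge peaks in each of these 6 splits, by 0.03 to 0.17. Against extending peaks alone, inside peaks were lower in the middle group by width, with 1.04 at inside and 1.07 at extending peaks. They were also lower in the lowest group by H3K4me3, with 0.82 at inside and 0.86 at extending peaks, and higher in the remaining groups.

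Inside and edge peaks of the same promoter allow a comparison that holds the H3K4me3 peak fixed. The width of the H3K4me1 peaks is not held fixed by it, and the part of width was not tested. All 5761 covering peaks were the only member on their H3K4me3 peak, so the edge peaks compared here were extending or flanking peaks. There were 480 H3K4me3 peaks with at least 1 inside and 1 edge peak. The inside peak had the higher log2 ratio in 301 of them (62.7%), with a median difference of 0.16 (0.09 to 0.21). In fold enrichment the difference, inside minus edge, was 0.0788 (-0.0538 to 0.227) in catalytic-dead cells, where 252 inside peaks were higher, and -0.233 (-0.330 to -0.116) in wild-type cells, where 185 were higher. The interval of the difference spans 0 in catalytic-dead cells, and lies below 0 in wild-type cells. With the values as deposited the median difference in log2 ratio was 0.03. On chromosomes 1 and X alone it was 0.10 (-0.12 to 0.22), an interval that spans 0.

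In 64 H3K4me3 peaks exactly 1 inside peak lay between an edge peak on each side, and the inside peak was above the mean of its neighbours in 40 of them, with a median difference of 0.13. One near that median lay on chr16, where an H3K4me3 peak at chr16:20609701-20612894 had a fold enrichment of 16.1 in catalytic-dead and 16.0 in wild-type cells. Its inside peak, chr16:20610945-20611562, had 3.96 in catalytic-dead and 1.57 in wild-type cells, a log2 ratio of 1.34. The flanking peak on the lower side, chr16:20608609-20610722, had 4.41 in catalytic-dead and 2.59 in wild-type cells, a log2 ratio of 0.77. The extending peak on the higher side, chr16:20611739-20613666, had 6.98 in catalytic-dead and 2.25 in wild-type cells, a log2 ratio of 1.64. All 3 peaks were higher in catalytic-dead cells, and the inside peak had the lowest value of the 3 in both lines.

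The other triple nearest the median, under the H3K4me3 peak chr1:95696591-95702270, had log2 ratios of 1.08 at its inside peak and 1.06 and 0.85 at its flanking and extending peaks. At the extremes the order could go either way. The largest difference, 1.26, was at chr17:13178987-13186706, where the inside peak had 5.50 in catalytic-dead and 1.52 in wild-type cells, a log2 ratio of 1.86, between extending peaks of 0.72 and 0.47. The smallest difference, -0.82, was at chr3:133897913-133905321, where the inside peak had 3.45 in catalytic-dead and 2.58 in wild-type cells, a log2 ratio of 0.42, between extending peaks of 0.95 and 1.52. Next to these came chrX:34355291-34357973 with a difference of 1.02 and chr9:65970894-65975877 with -0.81.

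The change of H3K4me1 was smaller at members centred outside the H3K4me3 peak. Distance was measured from the midpoint of the H3K4me1 peak to the nearest edge of the H3K4me3 peak. Members whose midpoint lay over 1000 bp inside had a median fold enrichment of 4.96 in catalytic-dead and 2.79 in wild-type cells, a log2 ratio of 0.91 (2398 peaks). At 0 to 1000 bp inside it was 4.67 in catalytic-dead and 2.5 in wild-type cells, a log2 ratio of 0.96 (15386 peaks). Over this span the change was nearly level. At 0 to 500 bp outside the medians were 4.27 in catalytic-dead and 2.62 in wild-type cells, a log2 ratio of 0.80 (2297 peaks). At 500 bp or more outside they were 3.38 in catalytic-dead and 3.10 in wild-type cells, a log2 ratio of 0.03 (-0.05 to 0.18, 479 peaks), which is not distinguishable from 0 by its interval. These 479 peaks were wide, with a median of 3757 bp, against 1662 bp at 0 to 1000 bp inside. Each peak has 1 value for its whole width, so where along a peak the change ends cannot be read.

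**Figure D2:**
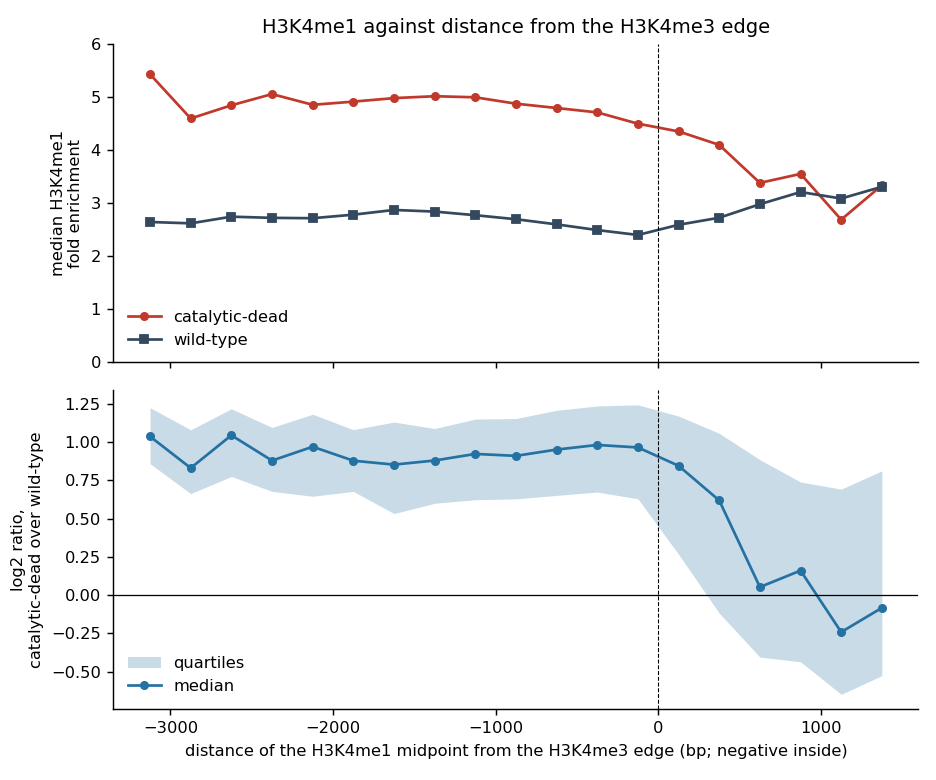
Median H3K4me1 fold enrichment of members in catalytic-dead and wild-type cells (top) and their log2 ratio with quartiles over peaks (bottom), against the distance in bp of the H3K4me1 midpoint from the nearest H3K4me3 edge, in bins of 250 bp with at least 20 peaks. The 2 lines lie apart for members centred within the H3K4me3 peak, with a log2 ratio of 0.96 at 0 to 1000 bp inside. They lie close for members centred 500 bp or more outside, at 0.03.

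The share of a member's width that lay within H3K4me3 gave the same order. Members with 75% to under 100% within had a log2 ratio of 1.0 (6702 peaks), those with 50 to 75% had 0.94 (9736 peaks) and those with 25 to 50% had 0.64 (2942 peaks). Below 25% the sign turned. The 279 members with 10 to 25% within had a median fold enrichment of 2.60 in catalytic-dead and 3.29 in wild-type cells, a log2 ratio of -0.39 (-0.47 to -0.27), and the 37 with 1 to 10% within had -0.46. The H3K4me3 peaks differed as well. At 10 to 25% their median was 4.67 in catalytic-dead and 4.25 in wild-type cells. It was 13.5 and 13.7 at 25 to 50%, and 10.7 and 10.9 at 1 to 10%. The part of H3K4me3 level in the order by share was not tested.

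At the limit that makes a member, the medians were close on both sides, over few peaks. The 32 members that overlapped H3K4me3 by 100 bp or less had 2.04 in catalytic-dead and 2.80 in wild-type cells, a log2 ratio of -0.46. The 36 proximal peaks within 100 bp of an H3K4me3 peak but not touching it had 2.21 in catalytic-dead and 2.93 in wild-type cells. Their log2 ratio was -0.42 (-0.78 to -0.05). Further away the log2 ratio was -0.55 at 100 to 1000 bp (595 peaks), -0.58 at 1000 to 5000 bp (1157 peaks) and -0.81 beyond 5000 bp (2324 peaks). The limit of 50% that separates extending and flanking peaks marked no clear step: peaks with 50 to 55% within had 1.0 (1083 peaks) and those with 45 to 50% had 0.96 (807 peaks).

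**Figure D3:**
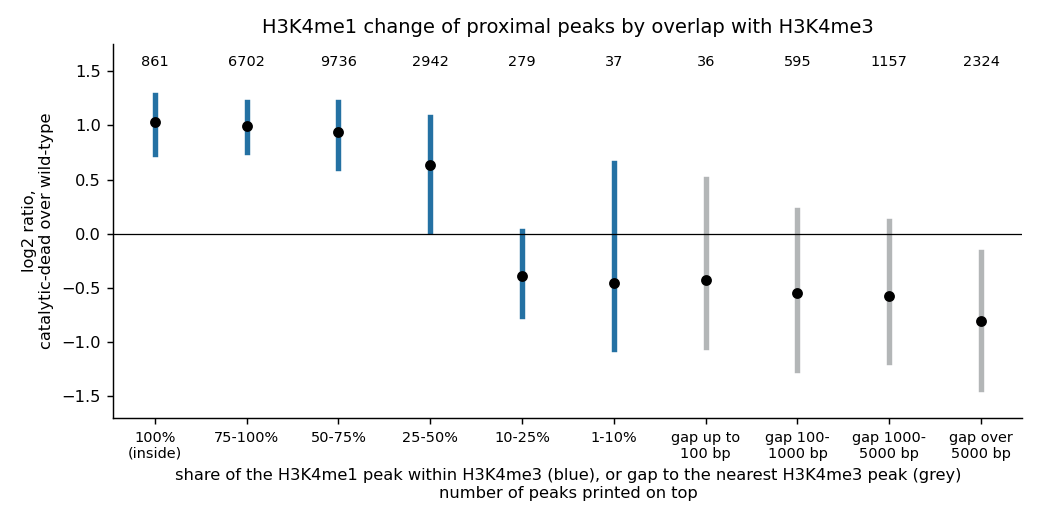
Log2 ratio of H3K4me1 fold enrichment, catalytic-dead over wild-type, for members by the share of their width within H3K4me3 (blue, high to low) and for proximal peaks without H3K4me3 by the gap to the nearest H3K4me3 peak (grey). Points are medians and bars quartiles over peaks, with the number of peaks on top; medians run between 1.03 for inside peaks and -0.81 beyond 5000 bp, and 3 members with under 1% within are not shown.

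Many promoters carried H3K4me1 on both sides. The members lay on 15247 H3K4me3 peaks, of which 10018 held 1 member, 5145 held 2 and 84 held 3. In 4708 of these, 1 member crossed each edge, which is the shoulder pattern. Shoulders of 1 promoter were separated by a median of 475 bp (quartiles 290 to 704) over an H3K4me3 peak of 2709.5 bp. H3K4me3 itself, which lies between and beneath them, was at a median of 15.6 in catalytic-dead and 15.8 in wild-type cells.

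Shoulders were higher in catalytic-dead cells on both sides of most promoters. The median log2 ratio was 1.04 at the lower-coordinate and 1.03 at the higher-coordinate shoulder, and both were above 0 at 4419 promoters (93.9%). Both were called increased at 1511 promoters (32.1%), 1 at 2023 (43.0%) and none at 1174 (24.9%), where 53.6% of all shoulders were increased. The 2 shoulders had opposite signs at 275 promoters (5.84%). The sides were only loosely tied, since Spearman's rho across the 4708 promoters was 0.18 for the log2 ratio, 0.219 for wild-type and -0.00745 for catalytic-dead fold enrichment. Shoulders of a pair share their libraries, and no test was made of these values. Within a pair they differed by a median of 0.34 on the log2 scale.

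**Figure D4:**
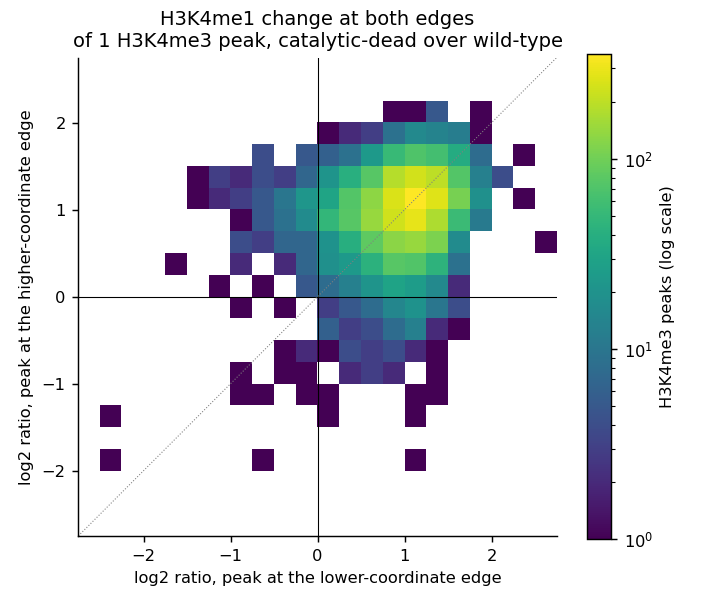
Log2 ratio of H3K4me1 fold enrichment, catalytic-dead over wild-type, at the lower-coordinate (horizontal) and higher-coordinate (vertical) shoulder of 4708 H3K4me3 peaks, as squares of 0.25 coloured by the number of H3K4me3 peaks on a log scale. Both values are above 0 at 93.9% of them, and the cloud shows little slope along the dotted diagonal (Spearman's rho 0.18).

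The wider shoulder tended to be the one with more H3K4me1 in catalytic-dead cells. The wider shoulder of a pair had a median width of 2237.5 bp and the narrower one 1158 bp. In catalytic-dead cells their medians were 5.09 and 4.53, and the wider one was higher at 3082 promoters (65.5%). In wild-type cells they were 2.48 and 2.39, and the wider one was higher at 56.8% of promoters. Promoters with a single member had a lower log2 ratio than the 1.03 of paired shoulders: a lone edge-crossing peak had a log2 ratio of 0.92 (3978 promoters), a lone inside peak 0.96 (279) and a lone covering peak 0.71 (5761).

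The change was greater at stronger H3K4me3 peaks. In 5 equal groups of members by wild-type H3K4me3 fold enrichment, lowest to highest, the median H3K4me1 log2 ratio was 0.50, 0.89, 0.99, 1.03 and 1.07. The share called increased was 18.4% in the lowest and 57.8% in the highest group. Most of the step lay between the lowest group and the next, where the H3K4me3 medians in wild-type cells were 5.52 and 11.6. In the lowest group H3K4me1 was 3.92 in catalytic-dead and 2.93 in wild-type cells, and in the highest it was 4.84 in catalytic-dead and 2.38 in wild-type cells. In the labels the marks of a line share their input libraries, and the part of this in the order was not tested.

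Covering peaks, which had the smallest median change over all members, also had the weakest H3K4me3, with a median of 9.53 in catalytic-dead and 9.23 in wild-type cells, while the other classes lay at 13.9 to 15.3 in catalytic-dead and 14.2 to 15.5 in wild-type cells. Among 3 equal groups of members by H3K4me3, the covering median was 0.59 in the lowest, 0.92 in the middle and 0.93 in the highest group. Flanking peaks were below them in the lowest and middle groups, at 0.12 and 0.81, and above them in the highest group, at 1.03. Covering peaks were thus the lowest class only in the highest group.

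The other methylation states of the same residue changed less at these promoters. An H3K4me2 peak overlapped 20547 members (99.9%), with a median fold enrichment of 10.8 in catalytic-dead and 9.14 in wild-type cells and a log2 ratio of 0.21. It was -0.08 with the values as deposited and 0.01 after quantile normalization, and the H3K4me2 table as a whole lay at -0.13. H3K4me2 was called increased at 0.813% and decreased at 1.51% of members, where the background over the H3K4me2 table was 1.91% and 23.0%. H3K4me3 at members had a median of 14.2 in both catalytic-dead and wild-type cells, with a log2 ratio of -0.01, and the H3K4me3 table lay at -0.03. So small a value gives no direction. H3K4me3 was called increased at 0.720% and decreased at 0.841% of members, where the background was 3.15% and 4.48%.

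Across the classes, the H3K4me2 log2 ratio was 0.15 at inside and 0.22 at edge peaks. It was 0.19 at covering, 0.23 at extending and 0.21 at flanking peaks. By median, inside peaks thus had a larger H3K4me1 change and a smaller H3K4me2 change than edge peaks, though their H3K4me1 median of 1.03 was close to the 1.02 of extending peaks. H3K4me2 was called increased at 1.97% of inside and 0.762% of edge peaks, where the background was 1.91%. It was called decreased at 1.51% of both, where the background was 23.0%. H3K4me3 was within 2-fold at nearly all members of each class. The share called increased was highest at inside peaks, with 1.74% (15 of 861), where the background was 3.15%. Covering peaks were next, with 1.58%. The share called decreased was highest at covering peaks, with 2.08% (120 of 5761), where the background was 4.48%.

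The 123 members called decreased in H3K4me1 differed from the rest in position and in H3K4me3 level. Their share of the members depended on the processing: it was 0.365% after median centring, 0.170% with a pseudocount of 1, 0.133% when 50% of the width had to lie within H3K4me3, 0.194% at H3K4me3 peaks above their median, 0.00973% after quantile normalization and 26.6% with the values as deposited. Covering peaks made up 61 of them and flanking peaks 49, while 10 were extending and 3 inside peaks. By class, 2.22% of flanking, 1.06% of covering, 0.348% of inside and 0.0852% of extending peaks were decreased, where the background was 28.4%. The H3K4me1 median of the 123 was 1.40 in catalytic-dead and 3.64 in wild-type cells. They lay on weak H3K4me3 peaks, at 2.84 in catalytic-dead and 4.38 in wild-type cells, with a log2 ratio of -0.55. H3K4me2 at the 121 of them with an H3K4me2 peak had a median log2 ratio of -1.58. At the 9007 increased members H3K4me3 was 15.7 in catalytic-dead and 15.4 in wild-type cells, and H3K4me2 had a median log2 ratio of 0.33. The 3 marks of a line share their input libraries in the labels, so the changes of the marks are set side by side and were not tested against each other.

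Single members illustrate the range. Among members whose mean over the lines exceeded the table median of 2.82, the inside peak with the highest log2 ratio was chr1:189039782-189040387, with an H3K4me1 fold enrichment of 6.14 in catalytic-dead and 1.35 in wild-type cells, a log2 ratio of 2.18. The H3K4me3 peak around it had 20.6 in catalytic-dead and 20.1 in wild-type cells. The inside peak chr5:24414708-24415395 had 4.78 in catalytic-dead and 1.10 in wild-type cells. At both, H3K4me1 in wild-type cells was below the lower quartile of the class, 1.83, under strong H3K4me3.

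The highest log2 ratios among extending peaks were at chr2:119486947-119488012, with 7.77 in catalytic-dead and 1.57 in wild-type cells (log2 ratio 2.31), and at chr13:67180812-67182276, with 6.70 in catalytic-dead and 1.45 in wild-type cells (2.21). Among flanking peaks they were at chr12:103148624-103151139, with 5.26 in catalytic-dead and 1.32 in wild-type cells (2.00), and at chr16:15633902-15637212 (1.95). Among covering peaks they were at chr2:122463098-122464199 (2.34), and at chr13:113441848-113442902, with 7.87 in catalytic-dead and 1.61 in wild-type cells (2.29). At the second of these H3K4me3 was 7.65 in catalytic-dead and 4.85 in wild-type cells, weaker than at the inside examples.

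Over all members the lowest log2 ratio was -1.42 in inside, -2.18 in covering, -2.26 in extending and -2.94 in flanking peaks. The lowest values under the same limit on the mean, 2.82, were closer to 0. Under that limit the lowest inside value was at chr10:80562508-80563085, with 2.81 in catalytic-dead and 4.49 in wild-type cells, a log2 ratio of -0.67, followed by chr17:23806752-23807921 with -0.47. Under that limit the lowest covering values were at chr8:97506259-97509190, with 1.59 in catalytic-dead and 4.46 in wild-type cells (-1.48), and chr1:158583657-158589533 (-1.32). Each of these covers an H3K4me3 peak with a wild-type fold enrichment of 3.47 or less. The lowest extending values under it were at chr8:72795164-72798060, with 1.62 in catalytic-dead and 4.10 in wild-type cells (-1.34), and chr5:149549397-149553849 (-0.98). At the first of these H3K4me3 had a fold enrichment of 0.828 in catalytic-dead and 4.62 in wild-type cells, a log2 ratio of -2.48.

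Among flanking peaks with a mean above 2.82, the lowest log2 ratio lay next to a strong H3K4me3 peak. At chr18:35821910-35825473, of which 10.7% lay within H3K4me3, H3K4me1 had 1.24 in catalytic-dead and 4.83 in wild-type cells, a log2 ratio of -1.96. The H3K4me3 peak it touched had 16.2 in catalytic-dead and 13.5 in wild-type cells. The other was chr6:97303663-97307408, with 1.39 in catalytic-dead and 4.28 in wild-type cells (-1.62), where H3K4me3 was 2.38 in catalytic-dead and 5.53 in wild-type cells.

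Typical members had smaller changes on either side of 2-fold. The extending peak nearest its class median, chr11:100946862-100948535, had 6.11 in catalytic-dead and 3.01 in wild-type cells (1.02), and chr2:119499252-119500525 had 5.36 in catalytic-dead and 2.64 in wild-type cells. The typical inside peak chr1:19202888-19205170 had 4.15 in catalytic-dead and 2.03 in wild-type cells (1.03). Its H3K4me3 peak had 10.5 in catalytic-dead and 3.30 in wild-type cells, so its H3K4me3 change was larger than that of most members. The second typical inside peak, chr18:63853190-63853832, had 4.09 in catalytic-dead and 2.00 in wild-type cells. Typical covering peaks were chr1:74816278-74821040, with 5.38 in catalytic-dead and 3.28 in wild-type cells (0.71), and chr7:150923637-150926985, with 3.80 in catalytic-dead and 2.32 in wild-type cells. Typical flanking peaks were chr17:13897968-13901600, with 4.46 in catalytic-dead and 2.45 in wild-type cells (0.86), and chr6:83004961-83009036, with 5.00 in catalytic-dead and 2.74 in wild-type cells.

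The higher H3K4me1 of catalytic-dead cells was found along the genome. The median log2 ratio of members was between 0.84 and 1.03 on the 19 autosomes, with 36.8% to 53.5% called increased. Members of the X chromosome lay above that range, with 4.54 in catalytic-dead and 2.15 in wild-type cells, a log2 ratio of 1.13 and 63.5% increased (635 peaks). There, inside peaks had 1.11 and edge peaks 1.13, so the order of the 2 classes on most autosomes was not seen on X. The Y chromosome held 2 members.

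Members were then set against the regions of 129/Ola ES cells, which are listed with H3K4me1 only, with both marks or with H3K4me3 only. Of the members, 90.3% overlapped any such region, while 57.3% of proximal peaks without H3K4me3 did. Regions with both marks were met by 46.3% of members, H3K4me3-only regions by 39.6% and H3K4me1-only regions by 7.89%, where a member may meet regions of more than 1 kind. The classes differed in this. H3K4me3-only regions were met by 47.0% of inside and 39.2% of edge peaks. Within the edge peaks they were met by 52.6% of extending, 49.6% of flanking and 8.11% of covering peaks. Covering peaks lay on regions with both marks in 75.6%, and inside peaks in 35.4%.

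The change in R1 cells varied with the kind of 129/Ola region. For this each member was counted once, under both marks where it met such a region, otherwise under H3K4me3-only and only then under H3K4me1-only regions. The background over the whole H3K4me1 table was 15.2% increased and 28.4% decreased. The change was largest at members on H3K4me3-only regions (8090 peaks, 61.5% increased). It was 4.81 in catalytic-dead and 2.32 in wild-type cells, a log2 ratio of 1.10. On regions with both marks it was 4.76 in catalytic-dead and 2.80 in wild-type cells, a log2 ratio of 0.83 (9513 peaks), and on no listed region 3.96 in catalytic-dead and 2.29 in wild-type cells, a log2 ratio of 0.86 (1997 peaks). Members on H3K4me1-only regions (960 peaks) had a median near 0, with 3.24 in catalytic-dead and 3.20 in wild-type cells. Their log2 ratio was 0.0022 (-0.05 to 0.04). Of these members, 4.27% were increased and 6.04% decreased, both below the background. Their H3K4me3 peaks in R1 cells were weak, with a median of 4.67 in catalytic-dead and 4.40 in wild-type cells. The H3K4me3 median was 16.1 and 16.3 on H3K4me3-only regions, and 12.9 and 12.8 on regions with both marks. The part of R1 H3K4me3 level in these differences was not tested. The 123 decreased members were 0.598% of all members, where the background was 28.4%. Of them, 58 were counted under H3K4me1-only regions in this way, 32 under both marks, 2 under H3K4me3-only regions and 31 under none.

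H3K27ac, an acetylation of active promoters and enhancers, was listed in 129/Ola cells at 81.8% of members and at 39.9% of proximal peaks without H3K4me3. Where listed, its median log2 enrichment was 1.87 at inside and 1.45 at edge peaks. Inside peaks were higher in each group by H3K4me1 width, with 1.80 at inside and 1.48 at edge peaks in the narrowest, 1.89 at inside and 1.45 at edge peaks in the middle, and 2.1 at inside and 1.42 at edge peaks in the widest of 3 equal groups. The 129/Ola regions beneath were wider, with a median summed width of 2370 bp at inside and 1944 bp at edge peaks. Within 3 equal groups by region width the order was kept, with 1.5 at inside and 1.31 at edge peaks on narrow, 1.80 at inside and 1.48 at edge peaks on medium, and 2.03 at inside and 1.57 at edge peaks on wide regions. Members with and without listed H3K27ac had similar H3K4me1 log2 ratios in R1 cells, 0.94 and 0.89.

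Chromatin proteins were listed often at these promoters. Members had 7.79 ± 4.83 of the 17 factors in 129/Ola cells (mean ± SD over peaks), and proximal peaks without H3K4me3 had 2.91 ± 3.92. Each of the 17 factors was listed at a larger share of members, by 28.7 percentage points on average. The difference ranged between 4.46 points for WSTF, a partner of the ISWI remodeller, and 57.2 points for RUVBL2, an ATPase of several remodelling complexes. A peak on no 129/Ola region can list no factor, and 90.3% of members but 57.3% of proximal peaks without H3K4me3 overlapped a region. The summed width of the 129/Ola regions beneath was larger at members, with 1958 bp, than at proximal peaks without H3K4me3, with 987 bp. The parts of region overlap and width in the factor shares were not tested.

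RUVBL2 (72.8% of members) and its partner RUVBL1 (57.1%), SAP18 of histone deacetylase complexes (72.1%), and the splicing factors SRSF2 (69.9%) and SRSF1 (56.6%) were the most frequent. Of the ISWI group, the ATPase SNF2H was listed at 53.4% of members, BAZ1A at 22.3% and WSTF at 9.32%. Of the BAF remodeller, the core subunit BAF155 was at 52.0% and the ATPase BRG1 at 21.0%. Mediator, which links factors at enhancers to RNA polymerase, had MED1 at 51.5%, SUR2 at 45% and MED12 at 32.7%. The cohesin subunit SMC3 was at 51.3%, PHRF1 at 46.7%, the FACT subunit SSRP1 at 45.6% and the splicing factor subunit PHF5A at 19.4%. Subunits of 1 complex were thus listed at quite different shares, and shares of different factors also depend on antibody and depth.

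Between inside and edge peaks most factors differed by a few points. Only 4 of 17 factors were listed more often at inside peaks, with a mean difference of -1.64 points over the 17. This turned with width: by H3K4me1 width 10, 6 and 10 factors were more frequent at inside peaks in the narrowest, middle and widest of 3 equal groups, with mean differences of 1.53, -0.221 and 4.05 points. By summed width of the 129/Ola regions 6, 12 and 12 were more frequent on narrow, medium and wide regions, with -0.577, 2.29 and 4.00 points. SMC3 stood highest, at 59.9% of inside and 50.9% of edge peaks, 9.03 points more. The others were MED1 (55.1% of inside and 51.4% of edge peaks), MED12 (37.7% of inside and 32.4% of edge peaks) and PHF5A (20.2% of inside and 19.3% of edge peaks). At the other end SSRP1 was at 38.7% of inside and 45.9% of edge peaks, and PHRF1 at 40.4% of inside and 47.0% of edge peaks. Among edge peaks SSRP1 was at 62.3% of covering, 40.1% of extending and 34.0% of flanking peaks. PHRF1 was at 62.5%, 41.6% and 35.1%, in this order. For both factors inside peaks were thus close to extending and above flanking peaks. Against extending peaks alone, 6 of 17 factors were listed more often at inside peaks, with a mean difference of -0.109 points.

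The excess of SMC3 at inside peaks was present at each width. By H3K4me1 width it was 51.0% of inside and 42.3% of edge peaks in the narrowest of 3 equal groups, 65.8% of inside and 52.0% of edge peaks in the middle group, and 82.5% of inside and 57.9% of edge peaks in the widest group. By width of the 129/Ola region it was 60.0% of inside and 55.4% of edge peaks on narrow, 71.1% of inside and 57.3% of edge peaks on medium, and 75.8% of inside and 56.1% of edge peaks on wide regions. SMC3 had the largest excess at inside peaks of the 17 factors in 5 of these 6 splits, the exception being narrow regions, where BAZ1A had it with 6.06 points. For SSRP1 the order was not kept: in the narrowest group by H3K4me1 width it was at 34.9% of inside and 33.8% of edge peaks.

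**Figure D5:**
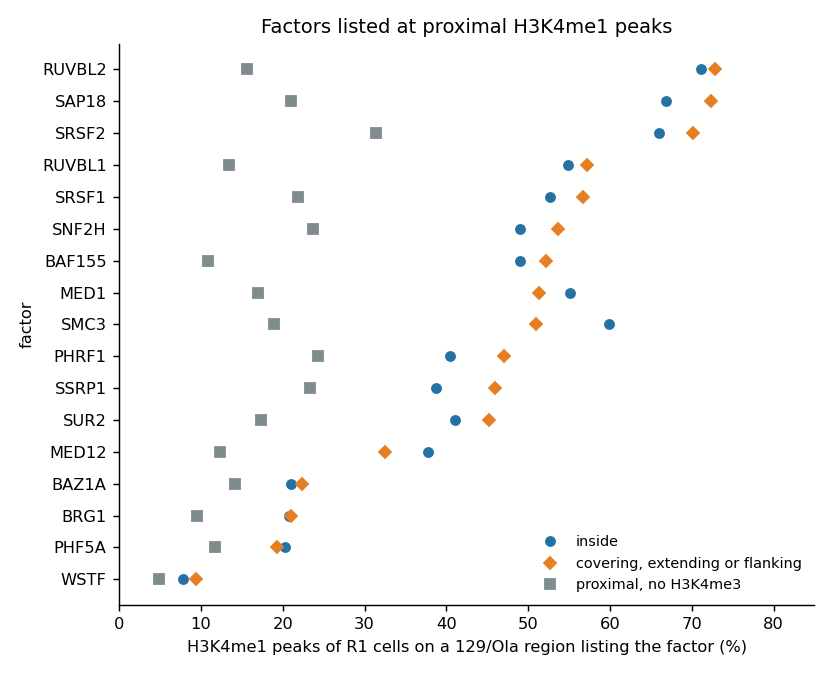
Share in percent of inside members, of edge members (covering, extending or flanking) and of proximal peaks without H3K4me3 that overlap a 129/Ola region listing each of 17 factors. All 17 factors are at larger shares in both sets of members than in proximal peaks without H3K4me3, and SMC3 has the largest excess at inside peaks, with 59.9% and 50.9% at edge peaks.

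The number of factors had little relation to the median change of H3K4me1. The median log2 ratio was 0.85 at members with 0 listed factors (2585 peaks), 0.91 with 1 to 5 (4247 peaks), 0.95 with 6 to 10 (6667 peaks) and 0.95 with 11 to 17 (7061 peaks). Low values varied more: 86.7% of members were above 0 with 0 factors and 96.3% with 11 to 17. The share decreased was 1.82% with 0 factors and 0.170% with 11 to 17, where the background was 28.4%. Increased members had 8.01 factors on average and members within 2-fold 7.65, a difference well within the spread between peaks, while the 123 decreased members had 3.76.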

How the data were processed

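Members, lists and classes were chosen with earlier results of these data known. The authors deposited tables of H3K4me1, H3K4me2 and H3K4me3 peaks with 1 fold enrichment (FE, read as a ratio) per line. They also deposited tables of 129/Ola regions with 1 log2 enrichment per factor, in which no value below 0.585 is listed. Of 31 names there, 11 matched no 129/Ola library and were not used. The build was mm9, per the submitters' processing notes. For R1 libraries the notes name MACS2 2.1.0.20150731, deepTools 2.5.1 and 2.5.3, BWA 0.7.13-r1126 and Picard 2.11.0, and for 129/Ola libraries Bowtie, Picard and MACS2. Not given in the sources used here are the role of these tools, what the enrichment is relative to, the pooling of replicates and whether positions start at 0 or 1. Depth is unknown.

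From these values log2(catalytic-dead / wild-type) was taken with no pseudocount, after score blocks had been put in the order of the positions. Across chromosomes 2 to 19, the mean Spearman's rho between H3K4me1 width and its wild-type value was 0.253 in the restored and 0.00253 in the deposited order, and it was 0.215 on chromosome 1. The restored order is taken as right from these values, and no note of the submitters states it. At 2 H3K4me2 peaks a value of 0 was set to 0.5 of the smallest value above 0. Each member was paired with the H3K4me2 and the H3K4me3 peak of largest overlap. Intervals of medians are 95% binomial intervals of order statistics. Peaks are neighbours on chromosomes and no replicates, so no test was made. Named regions are, per class, the 2 largest rises and falls among members with a mean above the table median and the 2 members nearest the class median. Named triples are the 2 nearest the median and the 2 largest and smallest differences. Scripts used Python 3.11.15, numpy 2.4.6, scipy 1.17.1, pandas 2.3.3 and matplotlib 3.10.9 and were tested on simulated data. Alternatives were another layout, scaling, pseudocount, filter, overlap and definition of inside.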

Additional observations from a re-analysis of the deposited data

How the results depend on the processing

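With 1 value per line neither the error between libraries nor the depth limits can be given, and leaving out a replicate was not possible. No paired analysis was possible because the tables hold no values of single libraries. The scale between the lines is not fixed by the tables. Class medians and quantile normalization were added after seeing the data. In the deposited layout the median log2 ratio of members was -0.071, of edge peaks -0.080, of covering peaks -0.15, of extending peaks -0.043, of flanking peaks -0.077 and of H3K4me2 at members -0.077. All of these turned sign. In that layout inside peaks were at 0.064, inside minus edge at 0.14, the difference within 1 H3K4me3 peak at 0.027 and the share increased at 17.9%. That layout pairs most values with other peaks if the restored order is right. No other setting turned a sign among the medians and differences recomputed. For the median of members, of inside and of edge peaks, in this order, the values were 1.03, 1.08 and 1.03 on chromosomes 1 and X, 1.14, 1.24 and 1.14 after median centring, 0.91, 1.0 and 0.90 with a pseudocount of 0.1, 0.72, 0.78 and 0.72 with a pseudocount of 1, and 0.50, 0.66 and 0.50 after quantile normalization. Members and edge peaks were at 0.97 and 0.96 when 50% of the width had to lie within H3K4me3, and at 0.98 and 0.97 at H3K4me3 peaks above their median. With inside defined by the midpoint, inside and edge peaks were at 0.95 and 0.73. The share increased was 16.4% with a pseudocount of 1 and 7.24% after quantile normalization. Inside minus edge was 0.057 (-0.038 to 0.152) on chromosomes 1 and X, 0.058 with a pseudocount of 1, 0.069 under the 50% limit, 0.22 by midpoint and 0.16 after quantile normalization. The 50% limit leaves no flanking peaks. The cause of each shift was not tested. Without the lowest 25% of peaks by mean and on autosomes alone, each value stayed within its interval, or its share within 1.5 times, except the difference of members from proximal peaks without H3K4me3, which was 1.23 without the lowest 25% of peaks and 1.63 with them. That difference was also 0.68 after quantile normalization and 0.14 in the deposited layout. The share decreased, 0.598%, was 26.6% in the deposited layout and 0.00973% after quantile normalization.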
